A study of Bos taurus with 12 samples.

Results

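Heat shock proteins of the cytosol and the mitochondria were followed in the liver of newborn Holstein calves as 10 genes given by symbol: HSPA1A, HSPA8, HSPH1, DNAJA1, DNAJB1, BAG3, HSP90AA1, HSP90AB1, HSPD1 and HSPE1. Each symbol was matched to its Entrez gene ID through a bovine RefSeq gene table, and all 10 were found among the 30336 gene IDs of the count files. The rule uses the symbols alone, and all 10 genes passed the filter on low counts. Liver RNA was sequenced from heifer calves at 4 d of age, with 6 libraries from calves whose dams were fed a control diet (CON) and 6 from calves whose dams received that diet plus ethyl cellulose rumen-protected Met (MET). Both diets were fed as close-up diets during the last 28 d before calving, and the basal diet held 15.3% crude protein at 1.47 Mcal per kg of dry matter. The supplement was given to the dam alone, and the calves of both groups, a subset of a larger cohort, were managed alike after birth.

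Heat shock proteins are molecular chaperones, which bind unfolded or partly folded proteins and help them to fold, to be rebuilt or to be degraded. HSP70 proteins hold and release their clients in a cycle driven by ATP, J proteins deliver the clients and start the ATP step, and exchange factors such as BAG3 and the HSP110 protein HSPH1 end the cycle by letting ADP leave. HSP90 takes over signalling proteins that are close to folded, and in the mitochondrial matrix HSPD1 (HSP60) forms a folding chamber that HSPE1 (HSP10) closes as a lid. Several of these genes are induced together by heat shock factor 1 (HSF1) when unfolded proteins accumulate, whereas HSPA8 and HSP90AB1 are the forms that most cells make without stress.

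The libraries held 8277789 to 10397604 counted reads each, and the members were covered by 166 (HSPH1) to 11700 (HSPA8) reads per library. Libraries CON 1 and 4 differed about as much as counting noise alone gives, and so did MET 1 and 3, so each of these pairs was summed and counted as 1 sample, which left 5 samples per diet. Tests are given over these 10 samples and, beside them, over all 12 libraries as the study used them. Nothing in the labels says more about how the samples of a diet were drawn, so p-values measure the spread between these samples. All CON libraries carried one first index and all MET libraries another on the same lane, so the index cannot be told apart from the diet. All 8 hepatocyte markers, ALB among them, passed the filter on low counts, and their summed level was 91110 to 160400 CPM (counts after TMM normalization, scaled to one total).

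For most of these genes the estimate was lower in MET than in CON, and HSPA1A was the clearest case, at 0.62 of the CON level and without overlap between the diets. The constitutive HSP70 gene HSPA8 had a similar fold of 0.63 with overlapping samples, whereas the mitochondrial lid HSPE1 was the member with the highest estimate, at 1.29 times CON. Of the 10 members, 8 had a lower and 2 a higher estimate in MET, with a median log2 difference of −0.23, where 50.5% of all 13242 genes tested had a lower estimate and the median was −0.003. With the quasi-likelihood test of edgeR, which is two-sided here, and with Benjamini-Hochberg adjustment over every gene tested (FDR of at most 0.10), 0 members were called over the 10 samples, where 0% of all genes were called. At an unadjusted p of at most 0.05 in that test, 3 members passed (HSPA1A and HSPA8 lower, HSPE1 higher), beside 16.3% of all genes.

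Over the 12 libraries 1 member passed the FDR of 0.10, HSPA1A, which fell, beside 4.41% of 13212 genes called in either direction and 2.32% called lower. DESeq2 over the 10 samples called 2 members, HSPA1A and HSPA8, both lower, beside 5.71% of the genes with an adjusted p. HSPA1A was also the only member whose 5 MET samples all lay outside the CON range, which held for 3.72% of all genes. These counts are of 10 genes, and the share of members called over 12 libraries rests on 1 gene.

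**Figure D1:**
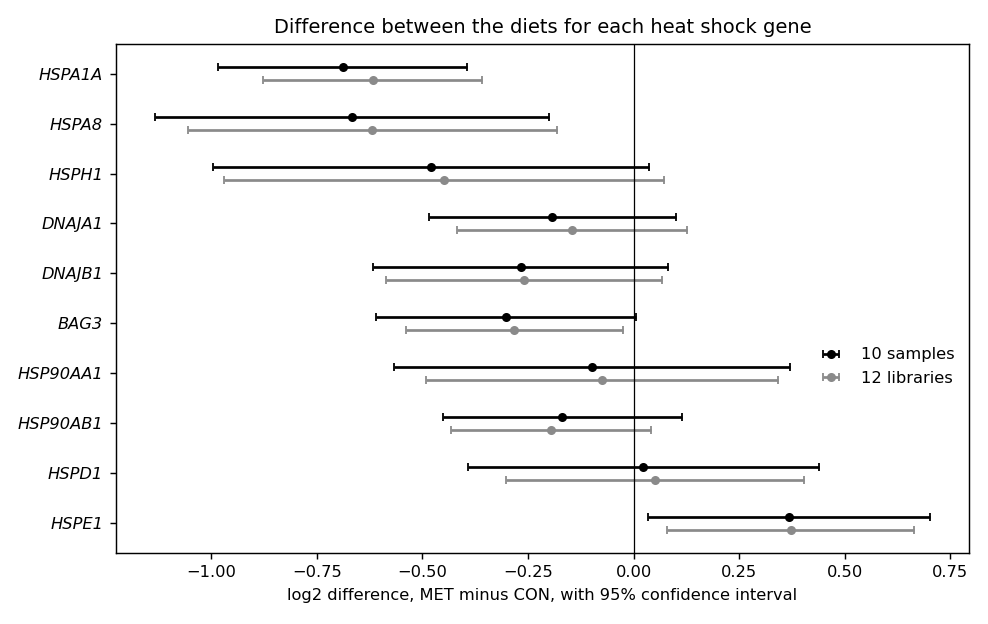
Log2 difference between the diets (x axis, MET minus CON) for each heat shock gene (y axis), with the 95% confidence interval from edgeR's quasi-likelihood fit over 10 samples (black) and over 12 libraries (grey). The intervals of HSPA1A and HSPA8 lie below 0 and that of HSPE1 above 0 in both fits, before any adjustment over genes, and the interval of BAG3 ends at 0.005 over 10 samples.

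HSPA1A encodes the stress-inducible cytosolic HSP70 and is a gene of a single exon (Entrez 282254, chromosome 23, positions 27331772 to 27333870 of UMD 3.1.1, minus strand). Its expression was 163, 185, 168, 199.8 and 238 CPM in the CON samples 1+4, 2, 3, 5 and 6. In the MET samples 1+3, 2, 4, 5 and 6 it was 136, 119.9, 101, 122 and 112 CPM. The lowest CON sample, 1+4, was thus above the highest MET sample, 1+3, and the same held when the 12 libraries were taken singly. The means were 191 ± 30.3 CPM in CON and 118 ± 12.8 CPM in MET (SD, n = 5 per diet).

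The log2 difference of HSPA1A was −0.69 (SE 0.14, 95% interval −0.98 to −0.39), with an adjusted p of 0.156 over the 10 samples (edgeR quasi-likelihood, Benjamini-Hochberg). Over the 12 libraries it was −0.62 (SE 0.12) with an adjusted p of 0.0452 in the same test. DESeq2 gave an adjusted p of 0.00112 over the 10 samples. The exact two-sided permutation test over 252 arrangements gave p = 0.00794, the smallest value that 5 samples against 5 allow. The study listed HSPA1A among its differentially expressed genes from these same libraries, so this p is a description of these samples and not independent evidence. Reads that matched several places were not counted, and HSPA1A has a near-identical copy, HSPA1B, in mammals. Among the genes counted here HSPA1B was only a synonym of HSPA1A. Whether such a copy took reads away from HSPA1A was not examined. A gene without a symbol, 436 bases away on the same strand, had 10 reads over all libraries. HSPA1L, a related HSP70 gene 130 bases away on the opposite strand, had 129 reads over all libraries, and the counting used strand.

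HSPA8 encodes the constitutive cytosolic HSP70, which also strips clathrin from vesicles (Entrez 281831, chromosome 15, positions 34216280 to 34220705, minus strand). It was at 620.9, 1003, 1055, 1063 and 1213 CPM in CON 1+4, 2, 3, 5 and 6, and at 509, 832, 492, 527 and 761 CPM in MET 1+3, 2, 4, 5 and 6. CON 1+4 was the only CON sample inside the MET range, and 3 MET samples were below it. The means were 991 ± 221 CPM in CON and 624 ± 159.6 CPM in MET (SD, n = 5 per diet). HSPA8 had a log2 difference of −0.67 (SE 0.21, 95% interval −1.13 to −0.20) with an adjusted p of 0.192 over 10 samples and 0.123 over 12 libraries (edgeR quasi-likelihood, Benjamini-Hochberg). DESeq2 gave an adjusted p of 0.0605 over 10 samples, and the exact permutation p was 0.0317. With 1 sample or library left out the log2 difference ranged from −0.80 (without CON 1+4, adjusted p of 0.192 in edgeR's test) to −0.58 (without CON 6, adjusted p of 0.296).

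The inducible and the constitutive HSP70 gene differed between the diets by about the same fold. Per kb of exon, HSPA1A was at 0.213 ± 0.0415 of HSPA8 in CON and at 0.214 ± 0.0575 in MET (SD, n = 5 per diet), and the ranges of 0.171 to 0.282 and 0.155 to 0.287 overlapped.

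**Figure D2:**
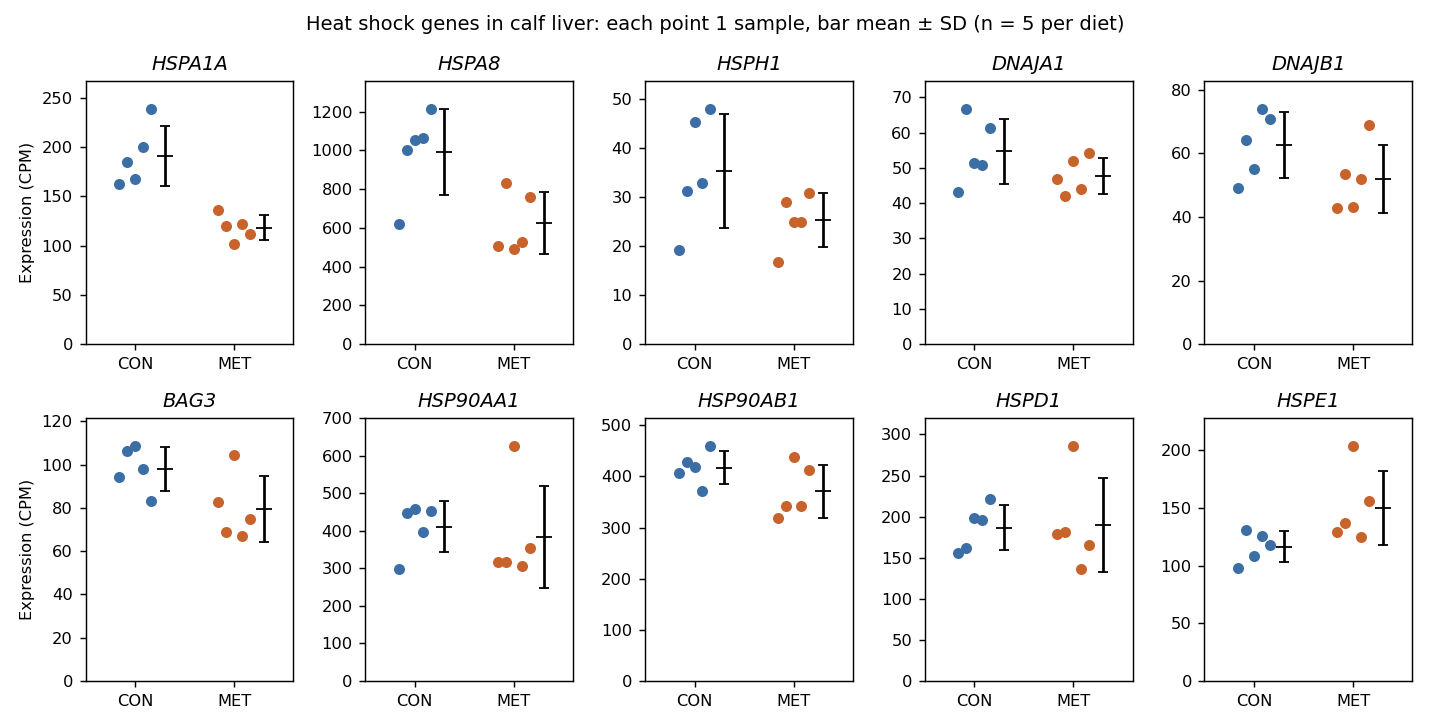
Expression of each heat shock gene in CPM (y axes from 0) in the 5 samples of CON and the 5 of MET (points), with the mean and SD beside them. HSPA1A is the gene whose points do not overlap, and MET 4 is the high orange point in HSP90AA1 (626 CPM), HSPD1 (286 CPM) and HSPE1 (204 CPM).

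HSPH1, the HSP110 protein that works as an exchange factor for HSP70 and in pulling apart aggregates, had the lowest counts of the members (Entrez 507165, chromosome 12, positions 29820715 to 29844227, plus strand). Its values were 19.2, 31.3, 45.2, 32.8 and 47.9 CPM in CON 1+4, 2, 3, 5 and 6, and 16.8, 29.1, 24.8, 24.9 and 30.9 CPM in MET 1+3, 2, 4, 5 and 6. The 4 other CON samples were above every MET sample, and CON 1+4 was below all but 1 of them. For HSPH1 the log2 difference was −0.48 (SE 0.24, 95% interval −0.996 to 0.037), with an adjusted p of 0.337 over 10 samples and 0.313 over 12 libraries (edgeR quasi-likelihood, Benjamini-Hochberg). With 1 sample or library left out it ranged from −0.64 (without CON 1+4, adjusted p of 0.211 in that test) to −0.34 (without CON 6, adjusted p of 0.532).

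The J proteins DNAJA1 and DNAJB1 bring clients to HSP70, and DNAJB1 is the partner that is induced by stress with HSPA1A. DNAJA1 (Entrez 528862, chromosome 8, positions 76107882 to 76117637, plus strand) ranged from 43.1 to 66.7 CPM in CON and from 42.0 to 54.2 CPM in MET. DNAJB1 (Entrez 538426, chromosome 7, positions 12366856 to 12370536, plus strand) ranged from 49.2 to 73.8 CPM in CON and from 42.7 to 68.9 CPM in MET. The diets overlapped for both genes. The log2 differences were −0.19 (SE 0.13) for DNAJA1 and −0.27 (SE 0.16) for DNAJB1, with adjusted p of 0.499 and 0.429 over 10 samples (edgeR quasi-likelihood, Benjamini-Hochberg). Their 95% intervals were −0.48 to 0.10 and −0.62 to 0.08. Without CON 2 the log2 difference of DNAJA1 was −0.11, with an adjusted p of 0.704 in that test.

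BAG3 links HSP70 to the autophagy of damaged proteins and is strongly induced by HSF1 (Entrez 782633, chromosome 26, positions 40118556 to 40141993, plus strand). It was at 94.3, 106, 109, 97.8 and 83.3 CPM in CON 1+4, 2, 3, 5 and 6 and at 82.8, 68.8, 104.5, 66.8 and 74.7 CPM in MET 1+3, 2, 4, 5 and 6. In MET, 4 samples were below the lowest CON sample and MET 4 was among the CON samples. BAG3 had a log2 difference of −0.30 (SE 0.14, 95% interval −0.61 to 0.005), with an adjusted p of 0.314 over 10 samples and 0.204 over 12 libraries (edgeR quasi-likelihood, Benjamini-Hochberg). The exact permutation p was 0.0476, one of 10 such tests, 1 for each member.

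HSP90AA1 is the inducible and HSP90AB1 the constitutive cytosolic HSP90. HSP90AA1 (Entrez 281832, chromosome 21, positions 68595870 to 68601237, minus strand) was at 299, 447, 458, 398 and 453 CPM in CON 1+4, 2, 3, 5 and 6, and at 316, 318, 626, 305 and 354 CPM in MET 1+3, 2, 4, 5 and 6. MET 4 was above every other sample, and the other MET samples lay between CON 1+4 and the 4 remaining CON samples. With all samples the log2 difference was −0.10 (SE 0.22, 95% interval −0.57 to 0.37) and the adjusted p was 0.858 (edgeR quasi-likelihood, Benjamini-Hochberg). The size of this estimate depended on which sample was left out. It was −0.34 without MET 4 (adjusted p of 0.335 in that test) and −0.19 without CON 1+4, but −0.056 without CON 3, −0.060 without CON 6, −0.036 without MET 2, −0.035 without MET 1+3 and −0.027 without MET 5.

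HSP90AB1 (Entrez 767874, chromosome 23, positions 17867556 to 17873438, plus strand) had the smallest ratio of highest to lowest sample among the members, with values from 371 to 459.7 CPM in CON and from 319 to 437 CPM in MET, and 3 MET samples were below the lowest CON sample. The log2 difference was −0.17 (SE 0.13, 95% interval −0.45 to 0.12), with an adjusted p of 0.549 over 10 samples (edgeR quasi-likelihood, Benjamini-Hochberg). Per kb of exon, HSP90AA1 was at 0.775 ± 0.115 of HSP90AB1 in CON and at 0.802 ± 0.185 in MET (SD, n = 5 per diet), and MET 4, at 1.125, was the highest sample in this ratio.

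The genes of the mitochondrial chaperonin lie head to head on chromosome 2, 153 bases apart, with HSPD1 on the minus strand (Entrez 511913, positions 86438979 to 86449372) and HSPE1 on the plus strand (Entrez 281833, positions 86449525 to 86451565). HSPD1 was at 156, 162, 198, 196 and 222 CPM in CON 1+4, 2, 3, 5 and 6, and at 179, 181, 286, 136 and 166 CPM in MET 1+3, 2, 4, 5 and 6. MET 4 was the highest and MET 5 the lowest of all samples, so MET spanned the whole CON range. The log2 difference was 0.02 (SE 0.19, 95% interval −0.39 to 0.44), with an adjusted p of 0.968 (edgeR quasi-likelihood, Benjamini-Hochberg), and it ranged from −0.17 without MET 4 to 0.12 without MET 5.

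HSPE1 was at 98.1, 131, 108, 126 and 118 CPM in CON 1+4, 2, 3, 5 and 6. In MET 1+3, 2, 4, 5 and 6 it was at 129, 137, 204, 125 and 156 CPM. In MET, 3 samples were above the highest CON sample and the other 2 were within the CON range. The means were 116 ± 13.4 CPM in CON and 150.1 ± 32.3 CPM in MET (SD, n = 5 per diet). HSPE1 had a log2 difference of 0.37 (SE 0.15, 95% interval 0.03 to 0.70), with an adjusted p of 0.272 over 10 samples and 0.151 over 12 libraries (edgeR quasi-likelihood, Benjamini-Hochberg). The exact permutation p was 0.0397. Without MET 4 the log2 difference was 0.23 with an adjusted p of 0.423 in the quasi-likelihood test. HSPE1 has only 479 bases of exon, and when the trend of each sample on gene length was removed the log2 difference was 0.12 with an adjusted p of 0.739. Per kb of exon HSPD1 was at 0.276 ± 0.0439 of HSPE1 in CON and at 0.214 ± 0.028 in MET (SD, n = 5 per diet), and 2 MET samples were below the lowest CON sample.

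Per kb of exon, HSPA8 had the greatest mean level over all samples, at 358 CPM per kb. HSPE1 followed at 278, HSP90AB1 at 165, HSP90AA1 at 131, HSPA1A at 73.6 and HSPD1 at 67.0 CPM per kb. BAG3 was at 35.8, DNAJA1 at 35.4, DNAJB1 at 25.6 and HSPH1 at 8.32 CPM per kb. Of the 9 pairs of neighbours in this order, 3 had ranges over the samples that did not overlap: HSPE1 was above HSP90AB1, HSPD1 above BAG3 and DNAJB1 above HSPH1. The first place differed between the diets, with a mean of 439.7 CPM per kb for HSPA8 and 243 for HSPE1 in CON against 277 and 313 in MET, though the samples of both genes overlapped in MET. Reads of HSPA8, HSPE1, HSPD1 and the HSP90 genes can also match processed pseudogenes, which mammals hold in number for these genes, and such reads were not counted, so the levels are uncertain to that extent.

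**Figure D3:**
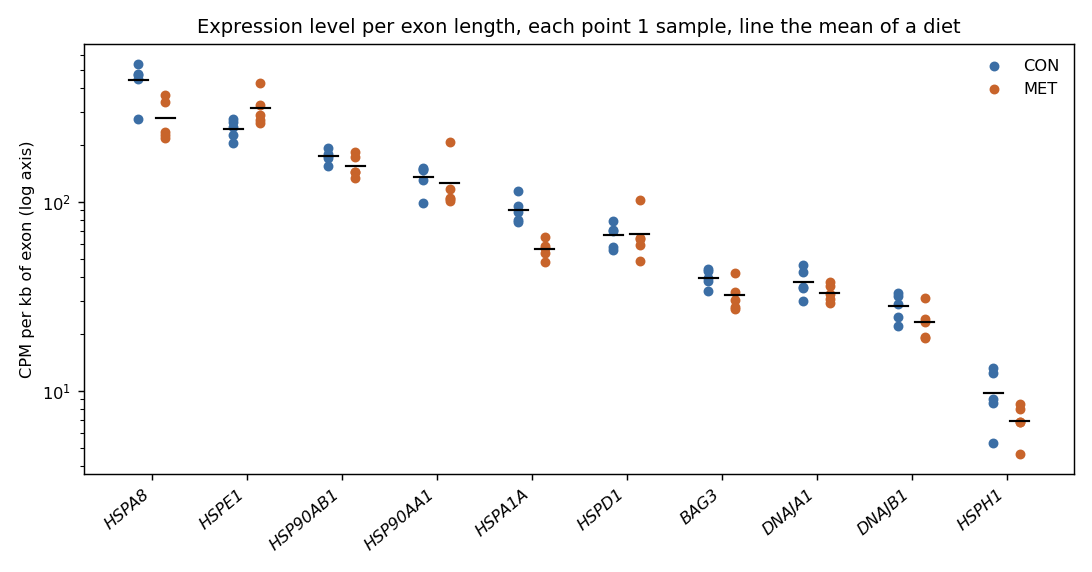
Expression level per kb of exon (y axis, log scale) of each heat shock gene, ordered by the mean over all 10 samples, with each point 1 sample, CON blue, MET orange and a line for the mean of a diet. The levels run from 358 CPM per kb for HSPA8 to 8.32 for HSPH1, and HSPE1 is above HSPA8 in the mean of MET only.

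Within the diets, HSPH1 (SD of 32.9% of the mean in CON and 21.5% in MET) and HSPA8 (22.3% and 25.6%) varied between samples by more than HSPA1A (15.9% and 10.9%) or DNAJA1 (17.0% and 10.7%), and HSP90AB1 varied by 7.77% and 13.9%. The SD was 35.6% of the mean for HSP90AA1 and 29.9% for HSPD1 in MET, against 16.3% and 14.7% in CON. None of these differences in spread was tested. Over all 10 samples, diet difference included, the ratio of the highest to the lowest value ran from 1.44 for HSP90AB1 to 2.85 for HSPH1. CON 1+4 was the lowest CON sample for 8 of the 10 members, the exceptions being HSP90AB1 and BAG3. CON 6 was the highest CON sample for 5 of them.

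MET 4 combined the lowest values of all samples in HSPA1A (101 CPM) and HSPA8 (492 CPM) with the highest in HSP90AA1, HSPD1 and HSPE1. The same sample had the highest sum of the 4 neutrophil markers, at 147 CPM where the CON samples held 13.6 to 48.8 CPM, and the lowest sums of endothelial (273 CPM) and stellate markers (491 CPM). Whether that has a part in its heat shock values was not tested.

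**Figure D4:**
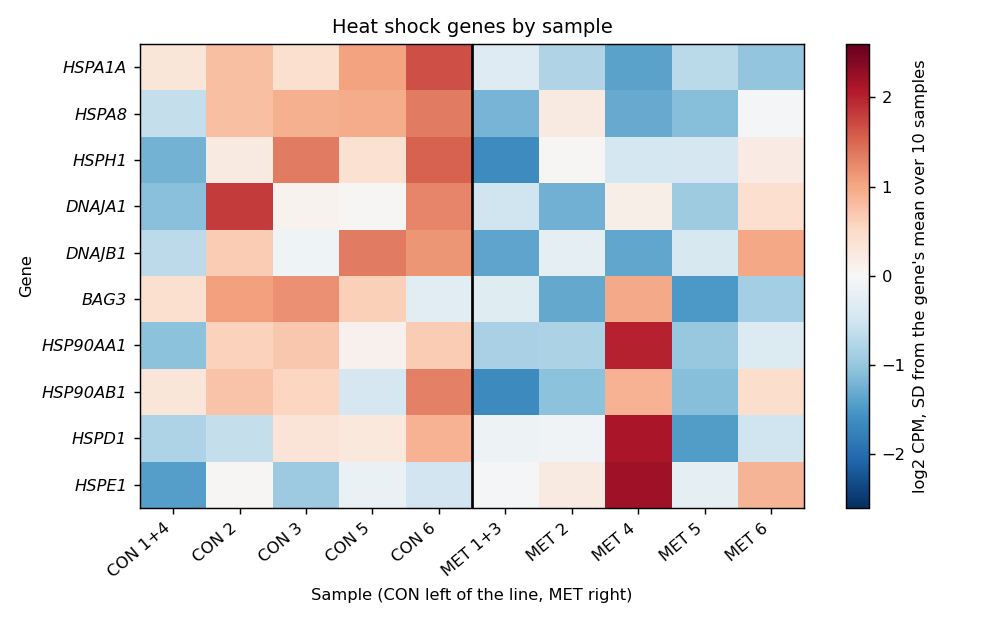
Log2 CPM of each heat shock gene (rows) in each sample (columns, CON left of the line), as SD from the mean of the gene over 10 samples, red above and blue below. CON 1+4 is the bluest CON column, and MET 4 is blue in HSPA1A and HSPA8 and deep red in HSP90AA1, HSPD1 and HSPE1.

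Among the 45 pairs of members, Pearson's r over the 10 samples ranged from −0.65 to 0.85 with a median of 0.46, and 37 pairs had r above 0. These samples share their libraries and scaling, and the values describe them only. HSPA8 and HSPH1 moved together most closely, with r = 0.85 (permutation p = 0.00127, adjusted 0.0572 over the 45 pairs) and Spearman's rho = 0.92 (permutation p = 0.00067). Without the 2 samples farthest from the median of HSPA8 r was 0.84, and within the diets it was 0.83. HSP90AA1 and HSPD1 had r = 0.83 (permutation p = 0.00308, adjusted 0.0693), which was 0.59 without the 2 farthest samples and 0.84 within the diets, MET 4 being the highest sample in both genes. HSPA1A and HSPE1 had the lowest value, r = −0.65, and −0.22 within the diets. Of the 45 pairs, none had an adjusted permutation p of 0.05 or less.

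The genes whose log2 CPM was most like the mean of the 10 members over the 10 samples, of 8190 genes with a mean of at least 10 CPM, were PAFAH1B1 (r = 0.96), MIA2 (r = 0.95), GMPS (r = 0.93), HNRNPK (r = 0.92) and FAM120A (r = 0.91). The least like were DCAF4 (r = −0.92), IL2RB (r = −0.90), PIGS (r = −0.89), ZNF674 (r = −0.89) and IMPA1 (r = −0.87). These are the extremes of 8190 correlations over 10 samples, and the difference between the diets is part of them. Each of the most alike genes had a lower mean CPM in MET than in CON, and each of the least alike a higher one. Correlations of these genes within the diets were not computed. The mean of the members was above its average in CON 2, 3, 5 and 6, MET 4 and, slightly, MET 6, and below it in the other 4 samples.

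The wider chaperone network was followed by gene lists. Lists of other HSP70 and HSP110 proteins, J proteins, exchange factors, HSP90 partners, small heat shock proteins, the cytosolic chaperonin TRiC with prefoldin, mitochondrial chaperones and proteases, and the HSF regulators held 119 genes together, of which 111 were tested. Of these, 75 had a higher and 36 a lower estimate in MET, with a median log2 difference of 0.06, so that 32.4% were lower where 50.5% of all genes were, and with the trend on gene length removed 63 were higher and 48 lower (median 0.03). Over 12 libraries 3 passed the FDR of 0.10 higher and 1 lower, beside 4.41% of all genes, and over 10 samples 0 passed (edgeR quasi-likelihood, Benjamini-Hochberg). At an unadjusted p of at most 0.05 in that test over 10 samples, 8 were higher and 5 lower, beside 16.3% of all genes, and DESeq2 called 4, beside 5.71%. The 4 genes over 12 libraries, the 8 and 5 together at an unadjusted p and the 4 by DESeq2 are each a smaller share of 111 than that of all genes.

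The lists nearest to the HSP70 cycle were divided. Of 8 other HSP70 and HSP110 genes, 3 had a higher and 5 a lower estimate (median −0.09), and of 34 other J proteins 23 were higher and 11 lower (median 0.03). The mitochondrial list, which holds the matrix HSP70 gene HSPA9 and its exchange factor GRPEL1, had 14 higher and 3 lower estimates of 17 (median 0.16). The lists are not separate: HSPA9, TRAP1, GRPEL1, GRPEL2, DNAJA3, HSCB and DNAJC19 are in this list and in another. Each of them had a higher estimate, which counts in both lists. TRiC and prefoldin, which fold actin and tubulin, had 15 higher and 2 lower of 17 (median 0.15), which became 12 and 5 (median 0.07) when the trend on gene length was removed. HSP90 partners had 15 higher and 8 lower of 23, exchange factors 5 and 3 of 8, small heat shock proteins 3 and 3 of 6, and HSF regulators 4 and 1 of 5. With the length trend removed, 18 J proteins were higher and 16 lower, 12 genes of the mitochondrial list higher and 5 lower, 11 HSP90 partners higher and 12 lower, 7 exchange factors higher and 1 lower, and 2 HSF regulators higher and 3 lower, whereas the counts of the other HSP70 genes and of the small heat shock proteins stayed as they were.

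**Figure D5:**
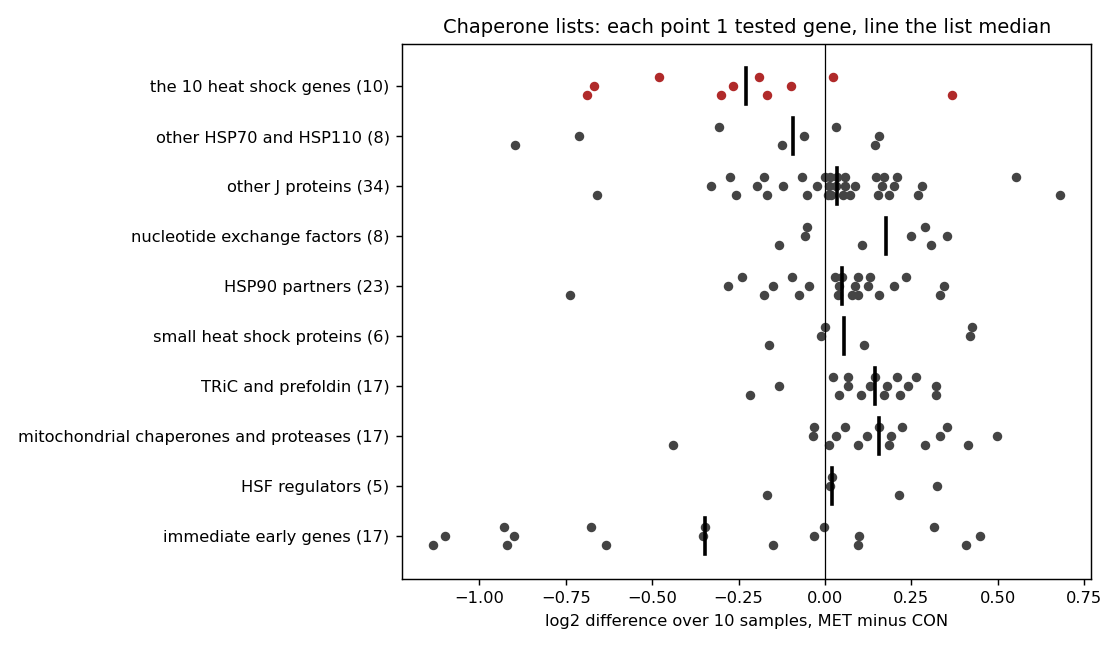
Log2 difference between the diets over 10 samples (x axis, MET minus CON) for each tested gene (points) of the heat shock genes and of the other lists (y axis, number of genes in brackets), with a line at the list median. The median is −0.23 for the 10 heat shock genes and −0.35 for the immediate early genes, and 0.15 to 0.16 for TRiC and prefoldin and for the mitochondrial list.

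The network gene that fell over 12 libraries was HSPA2, an HSP70 best known from male germ cells. It was at 4.92, 4.90, 9.02, 6.45 and 5.70 CPM in CON 1+4, 2, 3, 5 and 6 and at 3.60, 4.00, 3.22, 4.14 and 3.91 CPM in MET 1+3, 2, 4, 5 and 6, without overlap. Its log2 difference was −0.71 (SE 0.20), with an adjusted p of 0.175 over 10 samples and 0.0766 over 12 libraries (edgeR quasi-likelihood, Benjamini-Hochberg). The separation also held over the 12 libraries. The study listed HSPA2 among its differentially expressed genes too, as it did CLPP, NUDC and PFDN6, so the values of these genes are a description.

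The genes that rose over 12 libraries were CLPP, NUDC and PFDN6. CLPP, the proteolytic subunit of the mitochondrial matrix protease ClpXP, ranged from 21.1 to 28.2 CPM in CON and from 30.3 to 42.4 CPM in MET, without overlap over the 10 samples but with overlap over the 12 libraries. Its log2 difference was 0.50 (SE 0.13), with an adjusted p of 0.175 over 10 samples and 0.0855 over 12 libraries (edgeR quasi-likelihood, Benjamini-Hochberg). NUDC, a co-chaperone of HSP90, had means of 79.0 ± 10.8 and 100.3 ± 7.75 CPM in CON and MET (SD, n = 5 per diet), and PFDN6, a prefoldin subunit, 40.2 ± 4.53 and 50.2 ± 3.57 CPM. Their adjusted p over 12 libraries were 0.0917 and 0.0812 in the same test, and over 10 samples 0.213 and 0.201. With the length trend removed the log2 difference of PFDN6 was 0.14 instead of 0.32.

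HSF1, the transcription factor that induces many of the members, had overlapping samples and did not pass the test. It was at 24.4, 28.0, 24.7, 27.4 and 34.0 CPM in CON 1+4, 2, 3, 5 and 6 and at 28.7, 34.5, 29.9, 32.6 and 34.8 CPM in MET 1+3, 2, 4, 5 and 6, and CON 6 was the only CON sample above the lowest MET sample. The log2 difference was 0.21, with an adjusted p of 0.387 over 10 samples (edgeR quasi-likelihood, Benjamini-Hochberg). HSF1 is controlled largely at the protein level, which these data did not measure.

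Immediate early genes, such as FOS and MYC, are another group that many stimuli induce quickly. Of 17 tested, 12 had a lower and 5 a higher estimate in MET, with a median log2 difference of −0.35. Over 12 libraries MYC, KLF6 and FOSL2 fell and IER2 rose, with adjusted p of 0.0684, 0.0528, 0.0419 and 0.0869 (edgeR quasi-likelihood, Benjamini-Hochberg), which is 4 of 17 beside 4.41% of all genes. Over 10 samples none of them passed, with adjusted p of 0.175, 0.175, 0.172 and 0.187 in the same order and test. IER5 was the only gene of the list whose samples did not overlap, and it was higher in MET, at 5.99 to 8.61 CPM against 4.52 to 5.39 CPM in CON, with overlap over the 12 libraries. Its log2 difference was 0.41 (SE 0.15), with an adjusted p of 0.23 over 10 samples and 0.174 over 12 libraries in that test. MYC, KLF6, FOSL2 and IER2 were named after their values were seen, and the study lists them among its differentially expressed genes. The whole list summed to 315 to 429 CPM in CON and 265 to 327 CPM in MET. Whether they have a part in the values of HSPA1A and HSPA8 was not tested.

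The cell makeup of the samples was read from marker lists. Hepatocyte markers summed to 106300 to 160400 CPM in CON and 91110 to 130000 CPM in MET, with means of 144400 and 107600 CPM. Mean sums were also lower in MET for stellate (776 and 621 CPM in CON and MET), cholangiocyte (63.0 and 48.9 CPM), endothelial (408 and 365 CPM) and erythroid markers (419.5 and 226 CPM), and higher for macrophage, lymphocyte and neutrophil markers. The exact permutation p was 0.0317 for the hepatocyte sum, and between 0.0635 and 0.944 for the other 7 marker sums and the immediate early genes, without adjustment over the lists. All 8 hepatocyte markers had a lower estimate in MET, and 1 of them, APOB, fell over 12 libraries with an adjusted p of 0.0859 (edgeR quasi-likelihood, Benjamini-Hochberg). The macrophage, stellate and cholangiocyte lists also held 1 called gene each over 12 libraries in this test, C1QB higher with an adjusted p of 0.0855, LUM lower with 0.0985 and CFTR lower with 0.0889. Over 10 samples none of these 4 markers passed, with adjusted p of 0.189 for APOB, 0.213 for C1QB, 0.211 for LUM and 0.195 for CFTR (edgeR quasi-likelihood, Benjamini-Hochberg). These markers were named after their values were seen. Macrophage markers summed to 1136 to 1582 CPM in CON and 1334 to 1791 CPM in MET. Endothelial markers held 295 to 493 CPM in CON and 273 to 459.8 CPM in MET, stellate and fibroblast markers 663 to 950.5 and 491 to 808 CPM, and cholangiocyte markers 50.7 to 78.0 and 30.5 to 67.8 CPM. Lymphocyte markers summed to 15.4 to 25.8 and 16.7 to 29.6 CPM, neutrophil markers to 13.6 to 48.8 and 17.1 to 147 CPM, and erythroid markers to 8.78 to 1083 and 65.6 to 589.9 CPM. The diets overlapped in each list, and no marker was at 0 in every sample. In these bulk samples fewer cells of a type and less RNA per cell cannot be told apart, and the part of cell makeup in the heat shock values was not tested.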

How the data were processed

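Liver RNA libraries of calves (stranded, polyadenylated, read from one end on 1 lane) were used, 12 in all and 6 per diet, each put in its group by its label. The authors trimmed the reads, used STAR 2.5.3a to align them to UMD 3.1.1, a bovine assembly, and deposited raw counts of reads per gene made with featureCounts of Subread 1.5.2, counted by strand over exons and without multi-mapping reads. Coordinates are those of the count files. Symbols came from a RefSeq table of a later assembly, matched by Entrez ID (25105 of 30336 IDs). The members and the other gene lists were chosen with earlier results of these data known.

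Of 66 library pairs, 2 had a chi-square per gene near 1, under the limit of 3, and the 64 others 25.1 to 133. Each of the 2 pairs was summed. Counts were scaled with edgeR 4.0.16 (R 4.3.3) by TMM, filtered with its default rule (minimum count 10, minimum total 15) and tested with its quasi-likelihood test on diet alone, with Benjamini-Hochberg adjustment over all genes and an FDR threshold of 0.10, after the study's methods. Floors of 3 reads were 0.289 to 0.362 CPM and cover counting error only. Log2 CPM with a prior count of 2 entered the exact permutation tests (252 arrangements). Correlations used 100000 drawn pairings. On simulated data the fit was tested as well: with 5 samples per diet and 13242 genes, 67 of 100 genes changed by 1 log2 unit and 95 of 100 changed by 2 were recovered, 14 unchanged genes were called, and the median error was 0.16 on the log2 scale. Changes of less than 1 log2 unit, as all estimates of the members are, were not simulated. Alternatives were RLE, upper quartile and library size scaling, removal of the gene length trend (span 0.5), other filters, robust estimation, voom of limma 3.58.1, DESeq2 1.42.0, all 12 libraries, a replicate block and each library or summed sample left out.

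All members are named. Of the network lists, genes with an FDR of at most 0.10 or without overlap between the diets are named, and HSF1. The 5 genes most and least like the mean of the members are named among genes with at least 10 CPM. Promoter motifs were not searched, since no promoter sequence was used here.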

Additional observations from a re-analysis of the deposited data

Results flagged for a closer look

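HSP90AA1 in MET 4 was at 625.6 CPM, where the other MET samples lay between 305.3 and 354.4 CPM. The gap to the nearest sample was 0.847 of the whole range of MET, above Dixon's critical value of 0.71 for 5 samples. It was the only such sample in 30 groups of values, from 15 genes in each diet, of which chance would mark about 1 in 20.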

How the results depend on the processing

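The number of genes called depended on the treatment of the near-identical libraries and on the test. Over all 12 libraries 583 genes, 1 member and 4 network genes were called. DESeq2 over 10 samples called 639 genes, 2 members and 4 network genes, and over 12 libraries, an alternative added after seeing the data, 1314 genes, 3 members (HSPE1 the third) and 7 network genes. Without the summed sample MET 1+3, 39 genes were called, and with any single library left out 0. The other scalings, filters and fits over 10 samples called 0 genes. HSPA1A had a log2 difference between −0.74 and −0.60 in all 26 alternatives, and HSPA8 between −0.80 and −0.58. The estimate of HSPD1, near 0, changed sign in 5 alternatives, to −0.001 with upper quartile scaling, −0.012 with voom and −0.034 without the summed sample CON 1+4, and it ranged from −0.17 to 0.12 with single libraries left out, negative without CON 2 or MET 4. No other member and none of the named network genes changed sign.

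With the replicate block over 12 libraries, 6 genes and 0 members were called, and HSPA1A had an adjusted p of 0.15. Libraries of the same number did not vary together (correlations of −0.19 to 0.15), and 0 of 6 numbers had its own partner as the closest library, so the numbers were not taken to pair the libraries.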

Other observations

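The libraries that were counted once were also compared for each heat shock gene. These pairs were chosen because they differed about as much as counting noise over all genes, so close agreement was largely set in advance. The comparison is therefore not an independent measure of technical error. Of 20 comparisons (10 members in 2 pairs of libraries), 18 differed by no more than 2 counting errors, with a median fold of 1.03. The exceptions were both J proteins in the MET pair, DNAJA1 at 52.1 CPM in MET 1 and 41.7 CPM in MET 3 (1.25-fold, 3.51 counting errors), and DNAJB1 at 46.8 and 38.5 CPM (1.22-fold, 2.93 counting errors). These were the 2 largest folds of the 20, each between single libraries. Between the diets CON was 1.14 times MET for DNAJA1 and 1.203 times for DNAJB1, but those folds come from 5 samples per diet. The 2 kinds of fold can therefore not be set directly against each other.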
